A study of Mus with 9 samples.

Results

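The MYC, MAX and MXD network was followed through RNA sequencing counts of mouse bone marrow cells. Its 10 genes were taken by symbol from the count table (Myc, Mycn, Mycl, Max, Mxd1, Mxd3, Mxd4, Mxi1, Mnt and Mga), out of 54532 genes in all. All 10 were present, and 8 passed the filter on low counts, Mycn and Mycl being the exceptions. The study holds 9 libraries in 3 groups of 3, named Vec, CCND2wt and CCND2mut. Cells of every group came from mice with a conditional AML1-ETO knock-in, a leukemia fusion gene joined here to an mCherry tag. Fetal liver cells of embryonic day 12.5 were infected with a retrovirus, MSCV-IRES-EGFP, that carried no insert (Vec), wild-type CCND2 (CCND2wt) or CCND2 with Thr280Ala (CCND2mut). CCND2 encodes cyclin D2, a partner of the kinases that start the cell cycle. Cells positive for mCherry and GFP were then given, together with supportive cells, to lethally irradiated C57BL/6 mice. The labels do not give the age of the recipients, nor whether marrow was sorted before RNA extraction, so that cells of the host or of the supportive graft may be included. Nor do the labels say that libraries are separate animals, so that a p-value here reflects the spread among these libraries, which may be technical.

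MYC proteins bind DNA at E-box motifs as dimers with MAX and raise transcription of genes for ribosome production, translation and metabolism. The MXD proteins, MXI1 and MNT take the same partner and the same motifs, but recruit the SIN3 corepressor with its histone deacetylases, so that the balance of the members sets the output. MGA also pairs with MAX and is the scaffold of a Polycomb complex that silences germline genes. In blood, Myc is high in dividing progenitors, and Mxd1 is known to rise as granulocytes mature.

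Depth was 15043755 to 17593634 counts per library. Levels are given as CPM, the share of a library's counts scaled to a common total, on library sizes scaled by the TMM method, and differences as log2 fold changes from 1 edgeR quasi-likelihood fit, with p-values adjusted over the 15660 tested genes and a threshold of 0.05. Libraries are listed as Vec 1, 2 and 4, CCND2wt 2, 3 and 4, and CCND2mut 1, 2 and 3, after the numbers in their titles. The 3 comparisons share libraries pairwise. Ccnd2 itself was at 76.0, 78.9 and 86.0 CPM in Vec, at 7.29, 9.28 and 11.1 CPM in CCND2wt, and at 12.6, 58.1 and 51.0 CPM in CCND2mut. The groups that received CCND2 thus did not exceed Vec, and the species of the cloned sequence is not stated, so that groups are named by their labels only. Vec 1 and CCND2mut 1 stood apart from their groups in markers of mature cells, and the CCND2wt libraries were closer to each other than other replicates. Over pairs of libraries of 1 group, chi-square per degree of freedom was 6.999 to 17.7 within CCND2wt and 53.3 to 148 within the other groups.

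Markers of granulocytes differed between groups in sum, though Vec and CCND2mut overlapped for those of neutrophils. The summed level of 12 maturing neutrophil markers was 605 to 15425 CPM in Vec (the highest in Vec 1), 154 to 272 CPM in CCND2wt and 5953 to 21188 CPM in CCND2mut (the highest in CCND2mut 1). That of 5 promyelocyte granule genes was 1358 to 1887 CPM in Vec, 2500 to 2684 CPM in CCND2wt and 4989 to 10460 CPM in CCND2mut, and none of these 17 genes was at 0 in a whole group. By edgeR, 2 of the 12 neutrophil markers rose (16.7%) and 0 fell in CCND2mut against Vec, beside 24.9% and 26.9% of all tested genes. In CCND2wt against Vec 0 rose and 3 fell (25%), beside 9.71% and 9.05%. At unadjusted p under 0.05, 2 rose and 0 fell in the former, and 0 rose and 12 fell in the latter. In CCND2mut against CCND2wt, 9 were higher (75%) and 0 lower, beside 23.2% and 23.8%. The promyelocyte genes differed in direction in CCND2wt against Vec, with log2 fold changes of -4.01 to 1.85 and a median of -1.86. By edgeR 1 rose and 1 fell there (20% each), beside 9.71% and 9.05% of all tested genes, so the higher sum did not stand for most of them. Markers of erythroid cells ranged from 145 to 16988 CPM in Vec, 1083 to 1299 CPM in CCND2wt and 35.5 to 299 CPM in CCND2mut. The 8 genes of dividing cells summed to 811 to 1488 CPM in Vec, 2154 to 2263 CPM in CCND2wt and 2024 to 2828 CPM in CCND2mut. The part of these shifts in the results on the network was not tested. In bulk samples, fewer cells of a type and less RNA per cell cannot be told apart.

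Per length of gene, Mxd1 was the leading member in Vec and in CCND2wt, and Max in CCND2mut. In Vec, Mxd1 stood at 93.1 ± 19.2 CPM per kilobase of gene model (SD, n = 3), above all others without overlap. Mxd4 (33.0 ± 2.06), Max (31.2 ± 5.61), Mnt (30.2 ± 12.7) and Myc (28.5 ± 3.59) followed, and each overlapped the next in CPM per kilobase. Mga (10.7 ± 2.82) and Mxi1 (8.52 ± 1.77) overlapped each other, and Mxd3 was last at 2.75 ± 2.57 CPM per kilobase.

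In CCND2wt the level of Mxd1 was 55.3 ± 35.4 CPM per kilobase, followed by Max (21.6 ± 1.38), Mnt (16.7 ± 3.11), Myc (13.3 ± 2.27), Mxd4 (13.1 ± 0.492), Mga (11.1 ± 0.186), Mxd3 (8.28 ± 0.549) and Mxi1 (5.76 ± 0.580). Only the neighbours Mnt and Myc, and Myc and Mxd4, overlapped in that order. In CCND2mut the level of Max was 52.7 ± 14.0 CPM per kilobase and stood above all others without overlap. Myc (27.1 ± 10.2), Mxd1 (19.9 ± 9.93), Mxd4 (19.5 ± 0.595) and Mxi1 (17.9 ± 5.33) came next, and each overlapped the following one. Mnt (11.9 ± 3.64), Mga (5.76 ± 0.497) and Mxd3 (2.90 ± 1.32) were the lowest in CPM per kilobase, with no overlap between neighbours.

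**Figure D1:**
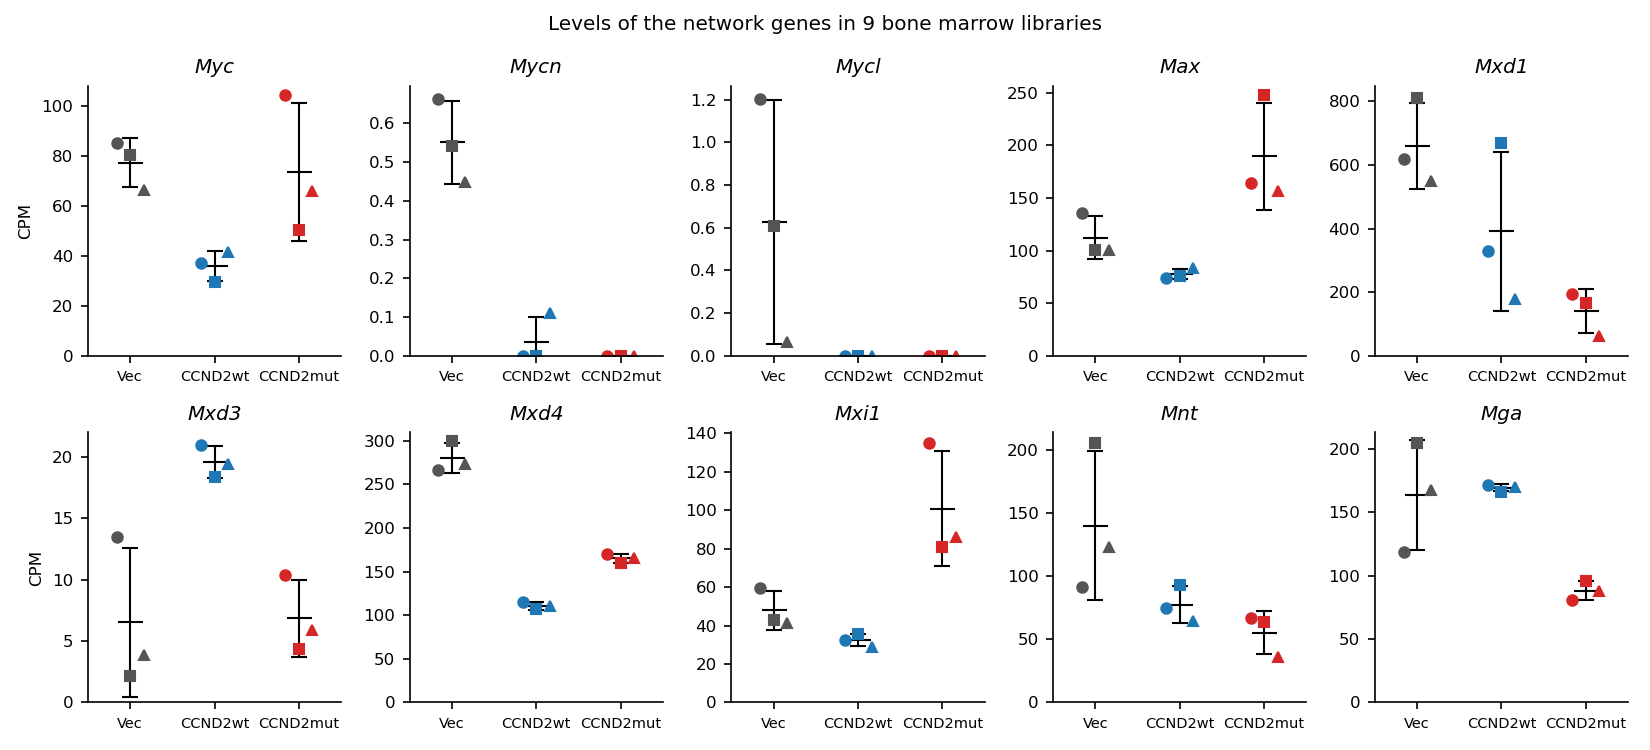
Level of each of the 10 members (y axis, CPM) in the libraries labelled Vec, CCND2wt and CCND2mut (x axis). Each point is 1 library (circle, square and triangle in the order in which libraries are listed), and the horizontal tick and bars give the mean ± SD. Max, Mxd4 and Mxi1 each separate all 3 groups, and Mxd1 is spread most within CCND2wt, from 178 to 667 CPM.

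Of the activators, Myc was the only one with an appreciable level, and it was lowest in the libraries labelled CCND2wt. Myc (mm10, chromosome 15, 61985391 to 61990374, plus strand) was at 85.4, 80.4 and 66.6 CPM in Vec, at 37.0, 29.4 and 41.7 CPM in CCND2wt and at 104, 50.4 and 66.1 CPM in CCND2mut. All CCND2wt libraries lay below all others, while CCND2mut spanned Vec on both sides. Myc fell 2.15-fold in CCND2wt against Vec (log2 fold change -1.10, SE 0.260, adjusted p = 0.0219 in edgeR). It was 2.04-fold higher in CCND2mut than in CCND2wt (1.03, SE 0.260, adjusted p = 0.0112). Between CCND2mut and Vec the difference was -0.07, with a 95% interval of -0.66 to 0.51 and adjusted p = 0.827.

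The call on Myc in CCND2wt against Vec was not stable. It was lost in 6 of 18 alternatives, among them without Vec 2 (adjusted p = 0.0551), without CCND2wt 2, 3 or 4 (0.0812, 0.0885 and 0.0605) and with the 3 CCND2wt libraries summed to 1 (0.368), while the log2 fold change kept its sign in all 18 (-1.22 to -0.90). The higher level in CCND2mut than in CCND2wt was called in 17 of 18 alternatives, and not with the CCND2wt libraries summed (adjusted p = 0.160).

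The long noncoding RNA Pvt1, whose gene lies next to Myc and starts at position 62037986 of chromosome 15, was the only other gene that passed the filter among those starting within 1 Mb of Myc. Pvt1 was at 1.504, 1.76 and 1.41 CPM in Vec, 5.81, 5.60 and 6.21 CPM in CCND2wt, and 8.06, 6.67 and 7.82 CPM in CCND2mut, with no overlap between groups. It rose in CCND2wt against Vec (log2 fold change 1.91, adjusted p = 0.00176 in edgeR) and in CCND2mut against Vec (2.27, adjusted p = 0.000134). Between CCND2mut and CCND2wt the difference was 0.36 (adjusted p = 0.207). Pvt1 and Myc thus differed in sign in CCND2wt against Vec, though the difference between the 2 genes was not tested.

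Genes of chromosome 15 as a whole had a median log2 fold change of 0.66 in CCND2mut against Vec (416 genes), where the median over all chromosomes was 0.06 (10243 genes). In CCND2wt against Vec the chromosome 15 median was -0.03. Myc, at -0.07 in CCND2mut against Vec, lay below its chromosome's median there, and Pvt1 above it. Chromosome 6, which holds Mxd1, had a median of 0.52 over 501 genes in CCND2mut against Vec. Chromosomes 12 (Max), 19 (Mxi1) and 5 (Mxd4) had medians of 0.17, 0.09 and 0.07, and chromosomes 2 (Mga) and 11 (Mnt) of -0.14 and -0.05. Of genes named below, Polr1a and Hk2 lie on chromosome 6 and L3mbtl2 on chromosome 15. Rrs1, Eno1 and Pkm lie on chromosomes 1, 4 and 9. The part of these chromosome-wide shifts in the values of the members and of the genes named below was not tested.

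**Figure D2:**
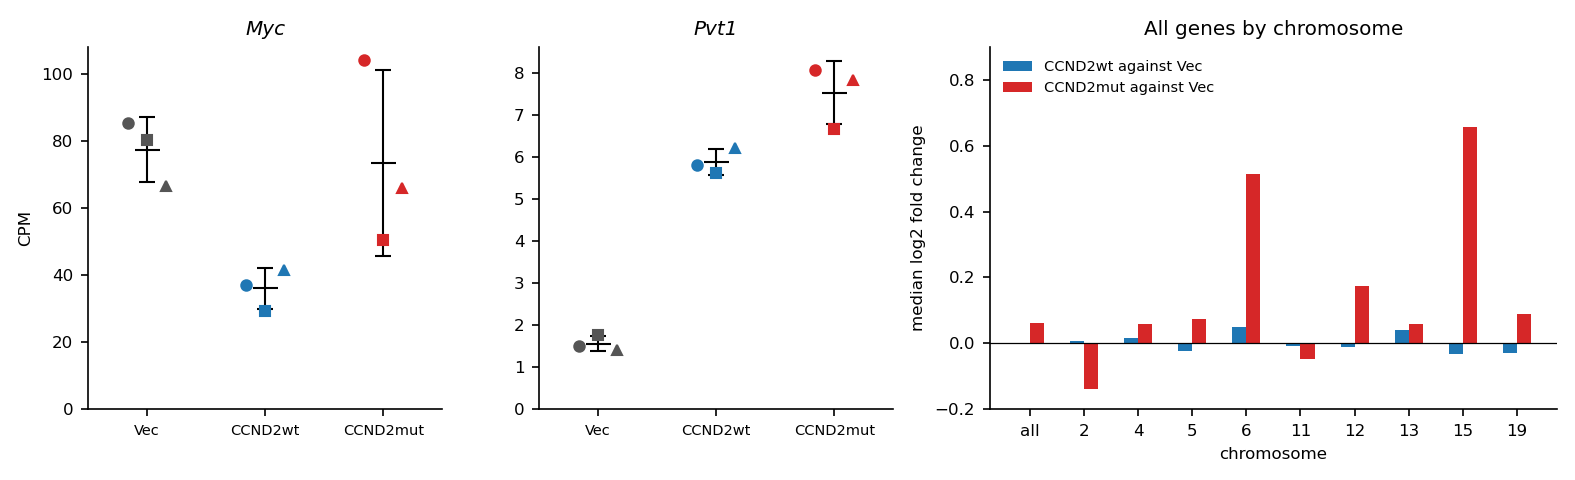
Levels of Myc and Pvt1 in each library (y axis, CPM; circle, square and triangle are the libraries in listed order, and bars are mean ± SD) and the median log2 fold change against Vec over genes of each chromosome that holds a member (bars, right panel). Myc is lowest in CCND2wt, Pvt1 is lowest in Vec, and chromosomes 15 and 6 stand out in CCND2mut with medians of 0.66 and 0.52.

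The other 2 activators were almost confined to Vec, at very low counts. Mycn, the MYC paralog of neural and early blood progenitors (chromosome 12, 12936093 to 12941914), had 11, 8 and 7 counts in Vec, 0, 0 and 2 in CCND2wt, and 0 in each CCND2mut library. Per counted read the ratio of Vec to CCND2wt was 15.2 (95% exact interval 3.79 to 132), and the level was at least 8.59-fold lower in CCND2mut than in Vec, taking a floor of 3 counts over the group. Mycl, the paralog with a role in dendritic cells (chromosome 4, 122995652 to 123002485), had 20, 9 and 1 counts in Vec and 0 in all other libraries. That is at least 11.7-fold lower in CCND2wt and 9.91-fold lower in CCND2mut. Most of these counts came from Vec 1, and without it the bounds were 6.01-fold and 5.11-fold. Intervals and floors cover counting error only, and both genes were below the filter of the test.

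Max, the shared partner of every other member, was highest in the libraries labelled CCND2mut. Max (chromosome 12, 76937269 to 76962201) was at 136, 100.5 and 100.6 CPM in Vec, 73.7, 76.3 and 83.3 CPM in CCND2wt, and 165, 248 and 157 CPM in CCND2mut. The 3 groups did not overlap, with CCND2wt lowest. It rose 1.69-fold in CCND2mut against Vec (log2 fold change 0.76, SE 0.197, adjusted p = 0.0120 in edgeR) and was 2.44-fold higher in CCND2mut than in CCND2wt (1.29, SE 0.199, adjusted p = 0.00102). Between CCND2wt and Vec the difference was -0.53 (95% interval -0.98 to -0.08, adjusted p = 0.0918).

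Relative to Myc, Max stood at 1.20, 0.944 and 1.14 in Vec, 1.502, 1.96 and 1.51 in CCND2wt, and 1.19, 3.71 and 1.79 in CCND2mut, as a ratio of CPM per kilobase. The ratio was higher in all CCND2wt libraries than in all Vec libraries, and CCND2mut 1 lay with Vec.

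Mxd1, the repressor tied to granulocyte maturation, fell in the libraries labelled CCND2mut. Mxd1 (chromosome 6, 86647042 to 86669161, minus strand) was at 618, 810 and 548 CPM in Vec, at 329, 667 and 178 CPM in CCND2wt, and at 195, 166 and 61.3 CPM in CCND2mut. All CCND2mut libraries lay below all Vec libraries, and CCND2wt overlapped both groups. The fall in CCND2mut against Vec was 4.68-fold (log2 fold change -2.23, SE 0.548, adjusted p = 0.00955 in edgeR). Between CCND2mut and CCND2wt the difference was -1.47 (95% interval -2.70 to -0.25, adjusted p = 0.0505), which passed the threshold in 5 of 18 alternatives. Leaving out CCND2wt 4 gave -1.83 (adjusted p = 0.0259), leaving out CCND2wt 3 gave -0.85 (0.203), and leaving out any library gave values between these. Between CCND2wt and Vec it was -0.75 (95% interval -1.96 to 0.45, adjusted p = 0.343). The gene models of Mxd1 and Max each overlap a gene model of unknown function on the same strand, Gm44292 (1307 counts over all libraries against 58655 for Mxd1) and Gm47218 (749 against 18353 for Max), so that reads in the overlaps are of uncertain origin.

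Within CCND2wt, Mxd1 was among the genes most unequal between the 3 otherwise close libraries. Its highest level was 3.74 times its lowest, where the median gene of at least 50 CPM had a ratio of 1.09, and it ranked 3 of 4516 such genes. The 2 genes above it were Fosl2, an AP-1 subunit, and Rasgef1b, a Ras exchange factor, with ratios of 6.53 and 5.21. Fosl2 was at 245, 533 and 81.6 CPM in CCND2wt 2, 3 and 4. Next came Nr4a1, an immediate-early nuclear receptor, with 3.43. These genes, named after their values were seen, were all highest in CCND2wt 3 and lowest in CCND2wt 4, as Mxd1 was.

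Mxd4, a repressor expressed in many differentiated tissues, fell in both CCND2 groups and was the least variable member between replicates of CCND2mut. Mxd4 (chromosome 5, 34173883 to 34187720) was at 267, 299.8 and 274 CPM in Vec, 115, 107 and 110 CPM in CCND2wt, and 170, 160 and 165 CPM in CCND2mut. No group overlapped another, and CCND2mut lay between the others. It fell 2.53-fold in CCND2wt against Vec (log2 fold change -1.34, SE 0.0935, adjusted p = 0.000172 in edgeR) and 1.70-fold in CCND2mut against Vec (-0.76, SE 0.0924, adjusted p = 0.000291). It was 1.49-fold higher in CCND2mut than in CCND2wt (0.58, adjusted p = 0.00119). The first of these calls was lost with the CCND2wt libraries summed to 1 (-1.31, adjusted p = 0.0779), and the last as well (adjusted p = 0.0963).

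Mxi1, also called MXD2, rose in CCND2mut against Vec, where Mxd1, Mxd4 and Mnt fell. Mxi1 (chromosome 19, 53310506 to 53375810) was at 59.3, 42.8 and 41.5 CPM in Vec, 32.5, 35.6 and 29.1 CPM in CCND2wt, and 135, 80.7 and 86.2 CPM in CCND2mut. The groups did not overlap, and CCND2mut 1 was the highest library. Mxi1 rose 2.10-fold in CCND2mut against Vec (log2 fold change 1.07, SE 0.224, adjusted p = 0.00418 in edgeR) and was 3.11-fold higher in CCND2mut than in CCND2wt (1.64, SE 0.227, adjusted p = 0.000583). Between CCND2wt and Vec the difference was -0.56 (95% interval -1.07 to -0.06, adjusted p = 0.109).

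Mxd3, a repressor known from proliferating cells, was the least abundant tested member in Vec and CCND2mut. Mxd3 (chromosome 13, 55325168 to 55329823) was at 13.5, 2.17 and 3.91 CPM in Vec, 21.0, 18.4 and 19.5 CPM in CCND2wt, and 10.4, 4.33 and 5.90 CPM in CCND2mut. CCND2wt lay above both other groups, and Vec 1 lay apart from the other Vec libraries. The difference of CCND2wt from Vec was 1.58 (SE 0.618, adjusted p = 0.107 in edgeR). Without Vec 1 it was 2.71 with adjusted p = 0.00531. The difference passed the threshold in 4 of 18 alternatives, among them DESeq2 on all 9 libraries. CCND2mut differed from CCND2wt by -1.51 (adjusted p = 0.0745), which passed the threshold in 6 of 18 alternatives. From Vec, CCND2mut differed by 0.07 (95% interval -1.33 to 1.47, adjusted p = 0.929). Without Vec 1 the last difference became 1.17 (adjusted p = 0.0427), and it turned negative without Vec 2, Vec 4 or CCND2mut 1 (-0.36, -0.20 and -0.35). The end of Mxd3 overlaps that of Prelid1, a mitochondrial lipid carrier on the opposite strand with 26582 counts over all libraries against 1718 for Mxd3. The strand setting of the counting is not given in the sources used here, so that reads of the 2 genes cannot be told apart in the overlap. Prelid1 rose in CCND2wt against Vec (0.54) and in CCND2mut against Vec (1.49).

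Mnt, the broadly expressed repressor of the family, fell in CCND2mut. Mnt (chromosome 11, 74830920 to 74845725) was at 91.0, 205 and 123 CPM in Vec, 74.6, 93.0 and 64.6 CPM in CCND2wt, and 66.5, 63.4 and 35.9 CPM in CCND2mut. Vec 2 was the highest library, CCND2mut lay below Vec without overlap, and CCND2wt overlapped both. The fall in CCND2mut against Vec was 2.53-fold (log2 fold change -1.34, SE 0.337, adjusted p = 0.0105 in edgeR). Between CCND2wt and Vec the difference was -0.85 (adjusted p = 0.106), and between CCND2mut and CCND2wt it was -0.49 (adjusted p = 0.263).

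Mga, the scaffold that links MAX to a Polycomb complex, fell in CCND2mut against both other groups. Mga (chromosome 2, 119897228 to 119969581) was at 119, 205 and 168 CPM in Vec, 172, 166 and 170 CPM in CCND2wt, and 80.9, 96.1 and 87.9 CPM in CCND2mut. CCND2mut lay below all other libraries. The fall was 1.85-fold against Vec (log2 fold change -0.89, SE 0.181, adjusted p = 0.00372 in edgeR) and 1.92-fold against CCND2wt (-0.94, SE 0.182, adjusted p = 0.00307). CCND2wt differed from Vec by 0.05, with a 95% interval of -0.36 to 0.46 (adjusted p = 0.872).

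**Figure D3:**
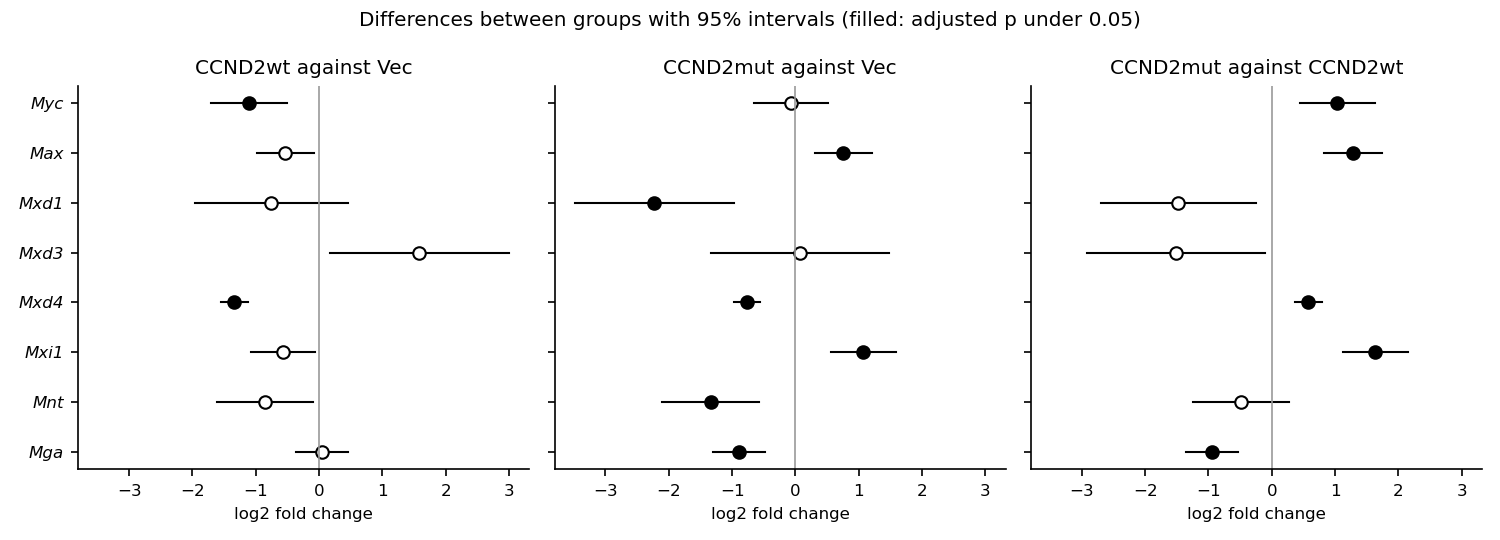
Log2 fold change (x axis) of the 8 tested members in each comparison, with 95% intervals from edgeR as lines; filled points have adjusted p under 0.05. In CCND2mut against Vec, Max and Mxi1 lie above 0 and Mxd1, Mxd4, Mnt and Mga below it, and Myc lies at -0.07.

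The calls over the network stood beside those over all tested genes as follows. In CCND2wt against Vec, 0 of 8 tested members rose and 2 fell by edgeR, where 9.71% of all tested genes rose and 9.05% fell. At unadjusted p under 0.05, 1 was higher and 5 lower, and DESeq2 called 1 higher and 2 lower. In CCND2mut against Vec, 2 rose and 4 fell, where 24.9% of all genes rose and 26.9% fell. In CCND2mut against CCND2wt, 4 were higher and 1 lower, beside 23.2% and 23.8% of all genes. With 8 members, the shares called higher in both comparisons with Vec (0% and 25%) were near those of all genes. The shares called lower there (25% and 50%) lay above the 9.05% and 26.9% of all genes, but rest on 2 and 4 members. In CCND2mut against CCND2wt the shares were 50% higher and 12.5% lower, the former above the 23.2% of all genes. At unadjusted p under 0.05, and also by DESeq2, 4 members were higher and 3 lower in that comparison. Groups did not overlap for 5, 6 and 6 members, beside 48.3%, 56.7% and 63.1% of all tested genes. The members' median log2 fold changes were -0.66, -0.42 and 0.05 in these 3 comparisons, beside -0.04, -0.03 and 0.02 over all genes. With the CCND2wt libraries summed to 1, 0 members were called in CCND2wt against Vec and 1 in CCND2mut against CCND2wt, while all 6 calls of CCND2mut against Vec held in all 18 alternatives.

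The makeup of the repressor pool differed between groups. Mxd1 made up 56.5%, 56.5% and 53.3% of the summed level per kilobase of Mxd1, Mxd3, Mxd4, Mxi1 and Mnt in Vec, 51.2%, 66.8% and 38.4% in CCND2wt, and 30.5%, 32.5% and 16.1% in CCND2mut. Mxi1 made up 6.83%, 3.76% and 5.08% in Vec, 6.37%, 4.49% and 7.89% in CCND2wt, and 26.6%, 19.9% and 28.5% in CCND2mut. In both shares CCND2mut lay apart from all other libraries, on opposite sides. The pool itself summed to 155, 203 and 145 CPM per kilobase in Vec, 90.8, 141 and 65.6 in CCND2wt, and 90.4, 72.3 and 53.7 in CCND2mut, so that both CCND2 groups lay below Vec.

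Set against this pool, the MYC family had a ratio per kilobase of 0.206, 0.148 and 0.169 in Vec, 0.150, 0.0768 and 0.234 in CCND2wt, and 0.425, 0.257 and 0.453 in CCND2mut. CCND2mut lay above all other libraries. The ratio of Myc to Mxd1 alone was 0.360, 0.258 and 0.316 in Vec, 0.293, 0.115 and 0.608 in CCND2wt, and 1.40, 0.789 and 2.81 in CCND2mut. The highest value outside CCND2mut was that of CCND2wt 4. These ratios are descriptions and were given no test.

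**Figure D4:**
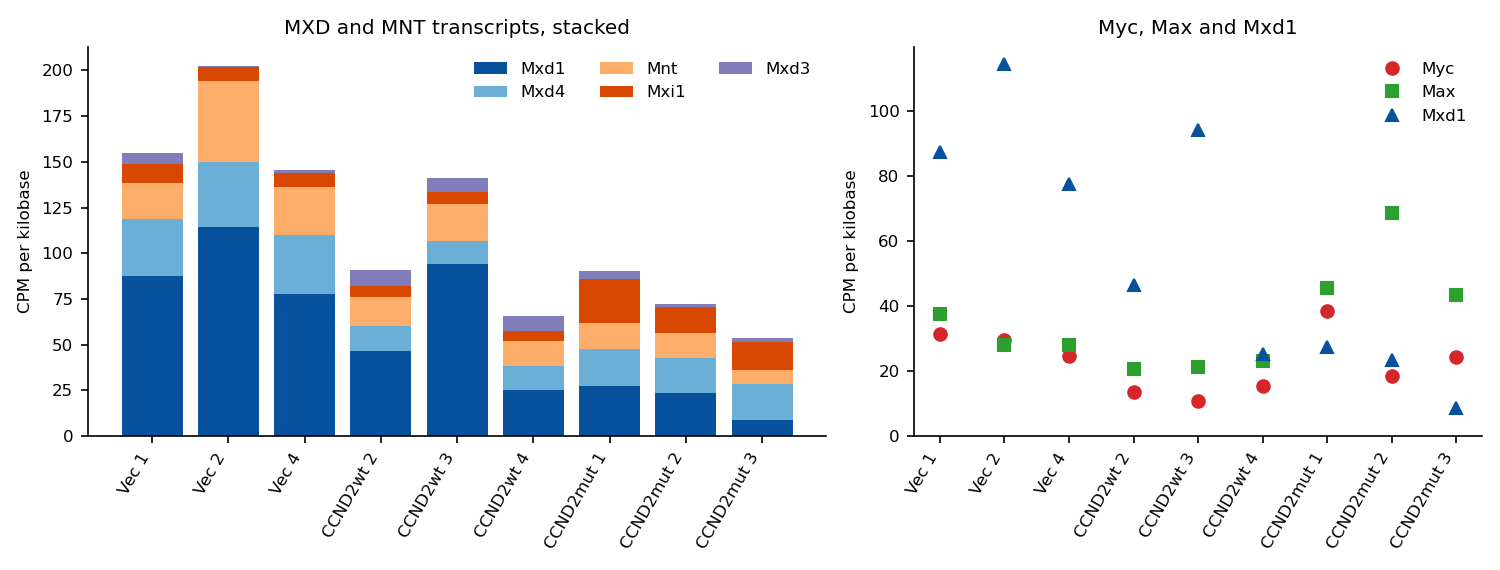
Left, stacked levels of Mxd1, Mxd4, Mnt, Mxi1 and Mxd3 in each library (y axis, CPM per kilobase of gene model); right, levels of Myc, Max and Mxd1 on the same scale, 1 point per library. Mxd1 is the tallest part of the stack in every library except CCND2mut 3, where Mxd4 is, and Mxd1 lies below Max in all CCND2mut libraries.

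Genes that MYC is known to drive were mostly higher in CCND2mut against Vec, a comparison in which Myc itself did not pass the test (-0.07). Of 29 tested genes of ribosome biogenesis, 18 rose (62.1%) and 1 fell (3.45%) in CCND2mut against Vec (median log2 fold change 0.58). Of all tested genes, 24.9% rose and 26.9% fell there. Polr1a, the large subunit of RNA polymerase I, was at 47.5, 64.4 and 55.2 CPM in Vec, 40.7, 44.9 and 42.6 CPM in CCND2wt, and 126, 246 and 181 CPM in CCND2mut (1.73 against Vec, adjusted p = 0.000451 in edgeR). Rrs1, a ribosome assembly factor, lay between 33.7 and 46.2 CPM in Vec and between 90.7 and 114 CPM in CCND2mut (1.40). The nucleolar proteins Ncl and Npm1 rose by less (0.51 and 0.53). The gene that fell was Ppan, also a ribosome assembly factor, at 206, 383 and 193 CPM in Vec and 80.6, 89.0 and 92.3 CPM in CCND2mut (-1.58).

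In CCND2wt against Vec, 0 of the 29 ribosome biogenesis genes rose (0 at unadjusted p under 0.05 and 0 by DESeq2) and 3 fell, Ppan (-1.33), Polr1b (-0.63) and Wdr43 (-0.46), with a median of -0.19. These shares, 0% and 10.3%, stood beside 9.71% and 9.05% of all tested genes. The calls on Polr1b and Wdr43 were each lost in 9 of 18 alternatives, among them without any 1 library of CCND2wt. In CCND2mut against CCND2wt, 23 were higher (79.3%) and 0 lower in edgeR, beside 23.2% and 23.8% of all tested genes. Also 0 were lower at unadjusted p under 0.05 and by DESeq2, and the median was 0.75. Leaving out Vec 1 and CCND2mut 1 was an alternative added after the data were seen. It raised the number of all genes called in CCND2wt against Vec from 2938 to 4470. In CCND2mut against Vec that number was 6095 to 8588 over the 18 alternatives. Of the ribosome biogenesis genes, 16 then rose and 1 fell in CCND2mut against Vec, and 9 fell in CCND2wt against Vec. With the CCND2wt libraries summed, also added after the data were seen, 7 were higher in CCND2mut than in CCND2wt, and 0 genes of any pathway list were called in CCND2wt against Vec.

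Of 36 known MYC targets of metabolism and translation, 23 rose (63.9%) and 2 fell (5.56%) in CCND2mut against Vec (median 0.76). In CCND2wt against Vec, 5 rose and 5 fell (13.9% each, median 0.16). The shares of all tested genes were 24.9% and 26.9% in the former comparison and 9.71% and 9.05% in the latter. 1 of the 5 that fell in CCND2wt was Ccnd2 (-3.12), the gene named in the group labels. Hk2, the hexokinase at the entry of glycolysis, was at 31.5, 68.5 and 30.1 CPM in Vec, 3.59, 4.47 and 2.91 CPM in CCND2wt, and 176, 297 and 329 CPM in CCND2mut. It fell in CCND2wt (-3.57, adjusted p = 0.00164 in edgeR) and rose in CCND2mut (2.62, adjusted p = 0.000741). Odc1, ornithine decarboxylase of polyamine synthesis, was at 654, 1022 and 1346 CPM in Vec, 251, 331 and 197 CPM in CCND2wt and 844, 461 and 566 CPM in CCND2mut. It fell in CCND2wt (-1.96, adjusted p = 0.00684), and the difference in CCND2mut was -0.69 (adjusted p = 0.104). The glycolytic enzymes Eno1 and Pkm rose in CCND2mut against Vec (2.58 and 1.41), whereas Tert, the telomerase catalytic subunit, fell (-3.04), with 2.59 to 3.46 CPM in Vec and 0.133 to 0.597 CPM in CCND2mut.

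The 10 genes that MYC is known to repress showed no common direction. In CCND2mut against Vec, 2 rose and 2 fell (20% each, median 0.30), near the 24.9% and 26.9% of all tested genes. In CCND2wt against Vec, 1 rose and 1 fell (10% each), near the 9.71% and 9.05% of all tested genes. The kinase inhibitor Cdkn2b was at 0.0602, 0.0678 and 0 CPM in Vec and at 1.21, 4.13 and 10.7 CPM in CCND2mut, and no fold is given against so few counts. The stress gene Gadd45a rose by 2.45, while Gadd45b fell by 2.93 and Ndrg1, a growth arrest gene, by 1.98. In CCND2wt against Vec, Cdkn2b rose to between 0.660 and 1.00 CPM and Cebpa, a granulocyte transcription factor, fell (-2.51), with a median of -0.50. Cebpa was at 13.6 CPM in Vec 1 and at 3.59 and 2.88 CPM in Vec 2 and Vec 4. Its call was lost in 10 of 18 alternatives, among them without Vec 1, and the value reached -1.43. That on Cdkn2b was lost in 8, among them without any 1 library of Vec or CCND2wt.

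**Figure D5:**
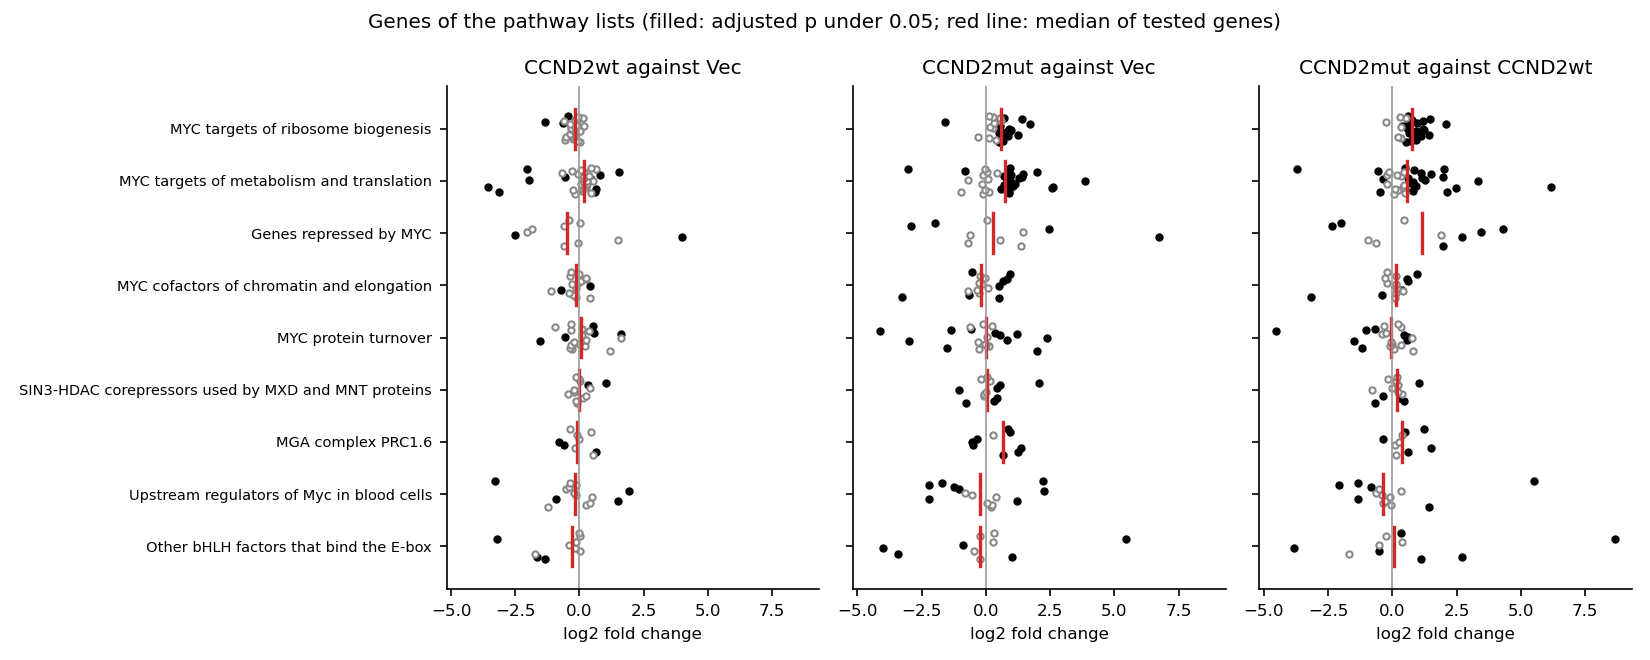
Log2 fold change (x axis) of each tested gene of 9 pathway lists in the 3 comparisons; each point is a gene, filled where adjusted p in edgeR was under 0.05, and red lines are list medians. Most ribosome biogenesis and metabolism genes lie right of 0 in CCND2mut against Vec, with medians of 0.58 and 0.76.

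Cofactors of MYC were called about as often as other genes. Of 16 cofactors, 5 rose (31.2%) and 3 fell (18.8%) in CCND2mut against Vec, where 24.9% of all tested genes rose and 26.9% fell. In CCND2wt against Vec, 1 rose and 1 fell (6.25% each), beside 9.71% and 9.05%. Wdr5, a chromatin adaptor that MYC binds, lay between 94.9 and 109 CPM in Vec and between 191 and 201 CPM in CCND2mut (0.93, adjusted p = 0.000142 in edgeR). Bin1, a MYC-interacting adaptor, was at 260, 298 and 315 CPM in Vec, 270, 260 and 268 CPM in CCND2wt, and 24.7, 27.6 and 37.8 CPM in CCND2mut (-3.28, adjusted p = 1.12e-05). The CCND2mut libraries thus lay far below all others for Bin1. Without Vec 1 and CCND2mut 1, 2 cofactors rose and 5 fell in CCND2wt against Vec. Of all genes, 4470 were then called in that comparison, beside 2938 in the main fit.

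Of 20 genes of MYC turnover, 3 rose (15%) and 2 fell (10%) in CCND2wt against Vec, near the 9.71% and 9.05% of all genes. In CCND2mut against Vec 6 rose (30%) and 5 fell (25%), also near the 24.9% and 26.9% of all genes. Without Vec 1 and CCND2mut 1, 5 rose and 4 fell in CCND2wt against Vec, where 4470 genes were called in all, beside 2938 in the main fit. Skp2, a ubiquitin ligase subunit, rose in both (1.61 and 1.22), calls lost in 5 and 6 of 18 alternatives, among them without Vec 2 and without Vec 4 in both. Pim1, a kinase that stabilizes MYC, fell in both (-1.52 and -3.01), from 1308, 2287 and 1712 CPM in Vec to 633, 853 and 360 CPM in CCND2wt and 212, 309 and 140 CPM in CCND2mut. Fbxw7, the ligase that recognizes phosphorylated MYC, differed by -0.33 and 0.00, and neither passed the test. The call on Pim1 in CCND2wt was lost in 7 of 18 alternatives, among them without Vec 2, Vec 4, CCND2wt 2 or CCND2wt 4.

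On the repressor side, the SIN3 scaffolds Sin3a and Sin3b did not pass the test in any comparison, with log2 fold changes of -0.19 to 0.16. Of 13 corepressor genes, 2 rose (15.4%) and 0 fell in CCND2wt against Vec by edgeR, beside 9.71% and 9.05% of all tested genes. There 1 was lower at unadjusted p under 0.05 and 0 by DESeq2. In CCND2mut against Vec, 5 rose (38.5%) and 2 fell (15.4%), beside 24.9% and 26.9% of all tested genes. Sap30, a SIN3 complex subunit, was at 14.98, 14.0 and 13.6 CPM in Vec, 26.4, 33.5 and 28.6 CPM in CCND2wt, and 77.3, 54.1 and 49.8 CPM in CCND2mut. It rose in both groups (1.05 and 2.09).

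Partners of MGA in its Polycomb complex changed in both directions in CCND2mut, where Mga fell. Of 9 such genes, 5 rose (55.6%) and 3 fell (33.3%) in CCND2mut against Vec (median 0.68), beside 24.9% and 26.9% of all tested genes. L3mbtl2, a reader of histone marks, rose (1.35), with 20.4 to 25.9 CPM in Vec and 48.7 to 70.6 CPM in CCND2mut. So did the repressor E2f6 (1.25), with 20.7 to 24.4 CPM in Vec and 41.1 to 61.2 CPM in CCND2mut. The ring finger subunits Pcgf6, Ring1 and Rnf2 fell (-0.50, -0.52 and -0.34), of which the call on Pcgf6 was lost in 12 and that on Rnf2 in 6 of 18 alternatives. Of 15 germline genes, 3 passed the filter, and the other 12 stayed at or below 0.782 CPM in every library. Stag3, a cohesin subunit of meiosis, was at 3.37, 1.83 and 1.66 CPM in Vec, 1.16, 0.736 and 0.605 CPM in CCND2wt, and 147, 109 and 183 CPM in CCND2mut (5.99, adjusted p = 2.09e-05 in edgeR). Tdrkh, of the piRNA pathway, moved the other way in CCND2mut (-4.47).

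The parallel MLX branch of the network, whose factors sense glucose, had 2 of 3 genes tested. Mlx, the shared partner of that branch, rose in CCND2mut against Vec (0.90, adjusted p = 0.00244 in edgeR). Mlxip, its glucose-sensing partner, fell in CCND2wt (-0.93, adjusted p = 0.0324, lost in 7 of 18 alternatives, among them without any 1 library of CCND2wt) and in CCND2mut (-1.11, adjusted p = 0.00541).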

How the data were processed

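Per the labels' protocols, TRIzol was used for RNA and an NEBNext Ultra kit for the libraries. The authors deposited unnormalized read counts for each gene, with a gene length column of the authors' annotation (other unit, bases). Per the submitters' processing notes, CASAVA 1.8, fastp, HISAT2 2.0.5, featureCounts 1.5.0-p3 and DESeq2 1.20.0 were used with mm10. The sources used here do not give the annotation release or the strand setting. All 9 count columns matched a title, and 0 were left over.

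Totals were 15043755 to 17593634 counts per library, and of 54532 genes 30980 had a read. Genes passing filterByExpr (15660) were scaled by TMM and fitted in 1 quasi-likelihood model over all 9 libraries with edgeR 4.0.16 under R 4.3.3, using robust dispersion, 6 residual degrees of freedom and Benjamini-Hochberg adjustment at 0.05. The median biological coefficient of variation was 0.246. CPM per kilobase divides CPM by the deposited gene length. Sums of low counts were compared with exact binomial intervals at 95% and a floor of 3 counts. Chromosome medians and likeness were limited to protein-coding genes averaging 5 CPM or more, and likeness used log2(CPM + 1). The script was tested on simulated data.

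The members and the 23 gene lists (274 genes) were chosen with earlier results of these data known. Named genes were the 10 members, up to 4 genes per list and comparison with the smallest adjusted p past the threshold, genes starting within 1 Mb of Myc, and the 5 genes most like Myc, Mxd1 and Mxi1. Ncl, Npm1, Tert, Fbxw7, Sin3a, Sin3b, Fosl2, Rasgef1b and Nr4a1 were named after their values were seen. Alternatives were RLE size factors, DESeq2 1.42.0, no filter, a stricter filter (1 CPM in 3 libraries), no hemoglobin, immunoglobulin and mitochondrial genes, a fit restricted to the groups in question, a replicate block, CCND2wt libraries summed, Vec 1 and CCND2mut 1 left out, and each library left out in turn.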

Additional observations from a re-analysis of the deposited data

How the results depend on the processing

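Each result was recomputed under 18 alternatives. In CCND2wt against Vec, 2 members were called by edgeR, 4 when only the groups compared were fitted, 4 without Vec 1 and CCND2mut 1, 0 with the CCND2wt libraries summed to 1, and 1 to 3 with each library left out in turn. Genes called there numbered 2938, with 1636 under a replicate block, 4470 without Vec 1 and CCND2mut 1, 39 with CCND2wt summed, and 1019 to 3817 with a library left out. In CCND2mut against CCND2wt, summing CCND2wt left 1 of 5 members and 2378 of 7360 genes. In CCND2mut against Vec the counts stayed within 6 to 7 members and 6095 to 8588 genes. For single members, 392 values kept their side and sign, 11 lost and 21 gained a call, and 8 reversed, all 8 of uncalled differences. Mga in CCND2wt against Vec (0.05) became -0.022 under the block, -0.11 without Vec 1 and CCND2mut 1, and -0.11 to 0.27 with a library left out. In CCND2mut against Vec with a library left out, Mxd3 (0.07) ranged from -0.36 to 1.17 and Myc (-0.07) from -0.41 to 0.13. The cause was not tested.

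Groups share replicate numbers, but at most 2 between any pair of groups, and same-numbered libraries deviated together with correlations of -0.07 to 0.19, so that the numbers were not taken as pairs. Under the block, Myc in CCND2wt against Vec had a log2 fold change of -0.90 (adjusted p = 0.0657 in edgeR). Mycn and Mycl, with 0 to 20 counts per library, were limited by depth.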

Other observations

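Of 10 other bHLH factors that bind the E-box, 2 rose (20%) and 3 fell (30%) in CCND2mut against Vec by edgeR (median log2 fold change -0.21), near the 24.9% and 26.9% of all tested genes. The largest changes in each direction were those of 2 MiT family genes. Tfec was at 2.71, 0.746 and 1.28 CPM in Vec, 0.317, 0.113 and 0.0550 CPM in CCND2wt, and 71.9, 28.9 and 109 CPM in CCND2mut (log2 fold change against Vec 5.45, adjusted p = 0.000347 in edgeR). Mitf, its paralog that drives mast cell and pigment cell genes, was at 129, 167 and 178 CPM in Vec, 136, 161 and 126 CPM in CCND2wt, and 4.06, 20.5 and 5.30 CPM in CCND2mut (-3.99, adjusted p = 0.000778). Markers of mast cells, which express Mitf, summed to 6914 to 9393 CPM in Vec and to 1232, 9422 and 2503 CPM in CCND2mut, and their part in the difference was not tested. Taken gene by gene, 2 of these 7 markers rose (28.6%) and 0 fell in CCND2mut against Vec by edgeR (median 0.59). Also 0 were lower at unadjusted p under 0.05 and by DESeq2, so the sum did not stand for most of them.

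Of 14 tested regulators of Myc transcription, 2 rose and 2 fell in CCND2wt against Vec (14.3% each), beside 9.71% and 9.05% of all genes. In CCND2mut against Vec, 3 rose (21.4%) and 5 fell (35.7%), beside 24.9% and 26.9% of all tested genes. Foxo3, a factor that opposes MYC, fell in CCND2wt (-0.91, adjusted p = 0.00369 in edgeR) and further in CCND2mut (-2.22, adjusted p = 2.09e-05), both against Vec. E2f1, a cell cycle factor, rose in both (1.502 and 1.21), and Stat5a, a cytokine signal carrier, fell in CCND2mut from 280 to 356 CPM in Vec to 54.1 to 86.1 CPM.

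The genes most like each member across the 9 libraries differed by member, as Pearson correlations of log2 CPM that share depth and cell makeup and carry no p. Nearest to Myc were Mterf3 (0.987), Arhgef4 (0.967) and Prkcd (0.950). Nearest to Mxi1 were Prtn3 (0.991), Fam49b (0.989), Tkt (0.987), Sh3tc1 (0.985) and Elane (0.983), of which Prtn3 and Elane are promyelocyte granule proteases. Nearest to Mxd1 were Fam53c (0.965), Lrch1 (0.962) and Dnajb5 (0.962).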
